A study of Mus musculus with 36 samples.

Results

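The 6 BPI-fold genes Bpifa1, Bpifa2, Bpifb1, Bpifb2, Bpifb9a and Bpifb9b were followed through mouse salivary glands with and without a Wnt-driven tumour. They are 6 of the 31102 genes in the single-cell tables, chosen by name under a rule that points to their levels per gland by genotype and stage, across cell populations and in bulk RNA, with earlier results of these data known. Which of those levels decided the choice is not recorded, so the patterns of genotype, stage and cell population below are a description, and the p-values printed for them are no independent evidence. The rest of the family, 12 genes that include the lipopolysaccharide-binding protein gene Lbp and the phospholipid transfer protein gene Pltp, served for comparison, and 5 of these had at least 10 unique molecular identifiers (UMIs, each 1 captured mRNA molecule).

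The study profiled submandibular glands of C57BL/6 mice by Drop-seq, a droplet method that counts polyadenylated RNA cell by cell. Double-mutant mice carried a β-catenin gain-of-function allele and a Bmpr1a loss-of-function allele, both switched by a Cre transgene under the keratin 14 promoter and therefore recombined in basal epithelium and its descendants. Double-mutant and control mice alike carried the K14-Cre transgene and the Cre-inducible R26 EYFP reporter, so the controls were not plain wild type, although the control bulk library is labelled so. There were 6 control glands at postnatal day 40 (P40) and 6 at P90, each with 3 females and 3 males, and 7 double-mutant glands at P40 and 7 at P90, each with 4 females and 3 males by label. Further glands, 2 controls (1 female, 1 male) and 2 double mutants (both female) at P70, were read by CITE-seq, in which antibody tags are counted beside the RNA. Bulk RNA was sequenced from 1 female per genotype, the control at P70 and the double mutant at P100.

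BPI-fold proteins are named after bactericidal/permeability-increasing protein, whose folded barrel holds a lipid such as bacterial lipopolysaccharide. Most genes of the family lie in 1 cluster, and their products are secreted onto wet epithelia of the mouth, nose and airways. BPIFA2, also called parotid secretory protein, is an abundant protein of rodent saliva, BPIFA1 is a secreted protein of the upper airway, and the products of the Bpifb9 genes are related to vomeromodulin, a secreted protein of nasal glands.

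In the mm10 coordinates of the bulk tables, the members lay on the plus strand of chromosome 2. Bpifb2 (chr2:153875045-153895270) stood at the proximal end of the cluster, Bpifa2 (chr2:154008265-154016079) and Bpifa1 (chr2:154142880-154149219) in its middle, and Bpifb1 (chr2:154190818-154220369), Bpifb5 (chr2:154223742-154240902, not a member), Bpifb9a (chr2:154257854-154271245) and Bpifb9b (chr2:154307227-154320646) followed each other at its distal end. The 3 promoters below belong to the members that carry nearly all the signal. They are RefSeq sequences on GRCm38.p6, plus strand, of 300 bases that run from 250 before the listed transcription start to 50 after it. The promoters of Bpifb9a (chr2:154257629-154257928) and Bpifb9b (chr2:154306994-154307293) are shown since the copies are near-identical, with the bases that differ between them in capitals, and that of Bpifa2 (chr2:154008026-154008325) is shown with both matches to CTTTGA in capitals.
Bpifb9a: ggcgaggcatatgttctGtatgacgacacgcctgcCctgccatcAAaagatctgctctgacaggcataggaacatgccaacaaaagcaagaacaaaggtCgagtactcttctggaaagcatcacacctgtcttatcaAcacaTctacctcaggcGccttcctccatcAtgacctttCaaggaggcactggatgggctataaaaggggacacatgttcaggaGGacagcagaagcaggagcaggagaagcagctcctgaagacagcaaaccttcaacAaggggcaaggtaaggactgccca
Bpifb9b: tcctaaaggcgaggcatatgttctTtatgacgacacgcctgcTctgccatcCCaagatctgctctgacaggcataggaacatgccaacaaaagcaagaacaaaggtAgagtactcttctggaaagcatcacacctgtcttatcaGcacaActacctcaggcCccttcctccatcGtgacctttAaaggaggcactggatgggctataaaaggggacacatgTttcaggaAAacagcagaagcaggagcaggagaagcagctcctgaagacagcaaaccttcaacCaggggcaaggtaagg
Bpifa2: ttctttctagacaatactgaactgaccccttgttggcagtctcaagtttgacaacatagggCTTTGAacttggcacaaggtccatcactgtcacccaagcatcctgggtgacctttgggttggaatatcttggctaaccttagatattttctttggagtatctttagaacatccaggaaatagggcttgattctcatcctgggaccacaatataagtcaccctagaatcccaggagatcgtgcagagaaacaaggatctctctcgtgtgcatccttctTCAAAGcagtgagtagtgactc
The Bpifb9a and Bpifb9b promoters had the same base at 279 of 293 aligned columns (95.2%), with 13 mismatches and 1 gap. Both held TATAAA, starting at position 197 in the printed Bpifb9a and at position 204 in the printed Bpifb9b sequence. Of the other members' promoters, that of Bpifa1 held it as well. On either strand TATAAA was present in 13.6% of the 32851 mouse promoters of this length. CTTTGA, the core letters bound by the TCF/LEF partners of β-catenin, was searched on both strands. It occurred 2 times in the Bpifa2 promoter, at position 62 on the plus and at position 279 on the minus strand, and once in that of Bpifb5. The promoters of the other 5 members, with 2 listed for Bpifb1, did not hold these letters in the window, and 16.0% of all promoters did. A match describes letters only.

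After filters 23346 cells remained of 26987 barcodes, 10743 from control and 12603 from double-mutant glands, with 650301 to 6994504 UMIs per gland. The median UMI number per cell was 2892 in control P40, 1341 in control P90, 1570 in double-mutant P40 and 766.5 in double-mutant P90 glands. All 26 glands held the submandibular acinar transcript Prol1, at 5405 to 86571 CPM (the gene's UMIs per 1000000 UMIs of the gland). In 2 double-mutant libraries, P40 replicate 1 and P90 replicate 5, the sex-linked transcripts went against the sex label. Both are from the same batch, and the mismatches are opposite. P40 replicate 1, labelled male, had 708 UMIs of the female-linked Xist and 1 of Y-linked genes. P90 replicate 5, labelled female, had 1 and 225. Whether the libraries were exchanged, which would exchange their stage labels as well, was not tested. All stage groups here use the labels as given. Double-mutant P90 replicate 4 is a library that the study set aside in part of its work. Of 325 pairs of libraries, 14 shared a cell barcode, and none shared more than 1. Nothing in the labels names litters, so p-values measure the spread between these glands.

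The members fell into 3 kinds in the Drop-seq glands. Bpifa2 had UMIs in all 26 glands, Bpifb9a and at a lower level Bpifb9b and Bpifb1 had UMIs only in double-mutant glands, and Bpifa1 and Bpifb2 were next to absent. No Bpifa1 UMI was counted in the 39770363 UMIs of the control and the 31984735 UMIs of the double-mutant glands. Bpifb2 had 1 UMI, in an ionocyte-like cell of double-mutant P40 replicate 3. Only Bpifa2 and Bpifb9a passed the filter on low counts in whole glands, so 2 of the 6 members entered the test there.

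Bpifa2 varied widely within each group. In the 6 control P40 glands its lowest, median and highest level was 0.158, 4244 and 21405 CPM. In the 6 control P90 glands these were 0.475, 68.1 and 5242 CPM. The 7 double-mutant P40 glands ranged from 23.1 to 7554 CPM with a median of 5120 CPM. The 7 double-mutant P90 glands ranged from 48.8 to 4351 CPM with a median of 399 CPM. All 4 groups overlapped, and the group means were 6715 ± 8238, 939 ± 2110, 4406 ± 3094 and 1151 ± 1509 CPM (SD, n = 6, 6, 7 and 7, in the same order).

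**Figure D1:**
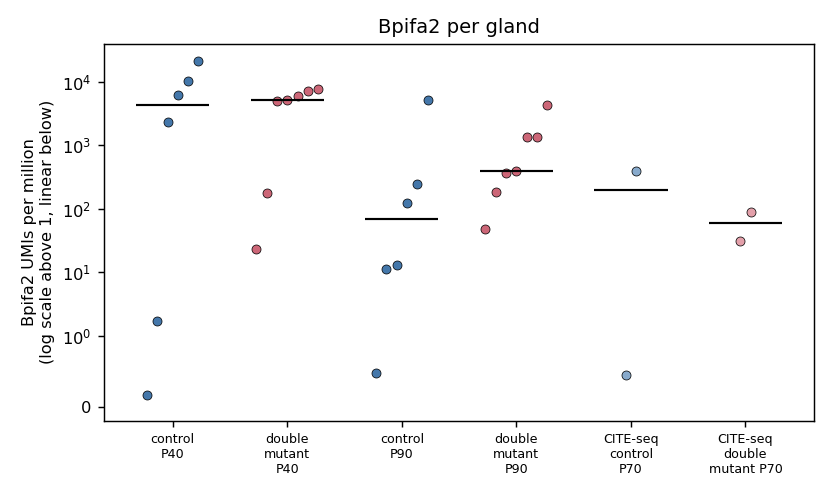
Bpifa2 level in each of the 26 Drop-seq glands (points; vertical axis CPM, log scale above 1 and linear below) by genotype and stage, with the 4 CITE-seq glands at the right and a bar at each group's median. The Drop-seq groups overlap, and control P40 glands span 0.158 to 21405 CPM.

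No contrast in whole glands called Bpifa2. With edgeR's quasi-likelihood test on UMIs summed per gland and Benjamini-Hochberg adjustment over all genes, the log2 fold change of double mutant over control was -1.19 (SE 1.21, adjusted p = 0.497). Of the 10488 genes in that test, 14.4% were called higher and 7.56% lower in double mutants. Without the Dcpp luminal-like cells the estimate was 0.30 (adjusted p = 0.880). With all populations kept, the genotype estimate was -1.34 at P40 (SE 1.57, adjusted p = 0.627) and -1.02 at P90 (SE 1.84, adjusted p = 0.756). The interaction of genotype with stage was 0.32 (SE 2.32, adjusted p = 1). From P40 to P90 the Bpifa2 estimate was -2.82 in controls (SE 1.82, adjusted p = 0.460), a contrast that called 5.04% of the genes tested. In double mutants it was -2.50 (SE 1.57, adjusted p = 0.640), where edgeR called 0.0% of genes, 1122 genes had an unadjusted p under 0.05, and DESeq2 called 28. For controls, the 2 stages never shared a batch, so batch cannot be told apart from stage there. In 5 of 8 batches, glands of both genotypes shared a stage. The log2 difference of the medians of CPM + 1 between them, double mutant minus control, was 2.36, -1.54 and 0.29 in the 3 batches with P40 glands and -1.76 and 5.08 in the 2 with P90 glands, each with 1 to 3 glands a genotype.

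Male and female control glands also overlapped in Bpifa2. The 6 female control glands had a lowest, median and highest level of 1.72, 183 and 21405 CPM. The 6 male glands had 0.158, 1153 and 10393 CPM. The log2 fold change of male over female was 1.72 (SE 2.65, adjusted p = 0.828 by edgeR), in a contrast that called 1.0% of the genes tested.

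Most Bpifa2 UMIs, pooled over glands, lay in a single secretory population. Cells were clustered with the genes of the BPI-fold family left out, and 1 cluster of 1296 cells was named Dcpp luminal-like from Dcpp1, Dcpp2 and Dcpp3, the demilune cell and parotid protein genes. It held 270354 Bpifa2 UMIs, 85.7% of all. In the 13 glands with at least 10 of its cells the share was 37.4 to 94.0% (median 84.6%), lowest in double-mutant P90 replicate 6, where mucous-like cells held 38.7%. The other 13 glands together had 3210 Bpifa2 UMIs, and in several of them 1 cell of another population held most: 90.8% of 174 UMIs in double-mutant P90 replicate 1, chiefly among ionocyte-like cells, and 81.2% of 388 UMIs in double-mutant P40 replicate 1, chiefly among acinar-like cells. A Bpifa2 UMI was seen in 1210 of the 1296 Dcpp luminal-like cells (93.4%, exact 95% binomial interval 91.9 to 94.7%, counting error over pooled cells only), at a median depth of 4403 UMIs per cell. In these cells Bpifa2 made up a median of 2.31% of the cell's UMIs (upper quartile 4.61%, highest 18.5%). Over all cells, the 1% with most Bpifa2 held 56.7% of its UMIs and the top 5% held 97.7%.

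Mucous-like cells, named from markers such as the sublingual mucin gene Muc19, had the next highest mean level. Over glands with at least 10 such cells, the Bpifa2 level was 31791 ± 19415 CPM in Dcpp luminal-like cells (SD, n = 13, range 4637 to 79997) and 6598 ± 8613 CPM in mucous-like cells (SD, n = 14, range 0.0 to 27648). Endothelial-like cells had 2034 ± 6291 CPM (SD, n = 22, highest 29089), myoepithelial-like cells 1947 ± 3420 CPM (SD, n = 14), immune-like cells 1206 ± 1949 CPM (SD, n = 24) and acinar-like cells 574.8 ± 858.9 CPM (SD, n = 26). The ranges of the populations other than Dcpp luminal-like overlapped each other. That of Dcpp luminal-like cells, from 4637 CPM upward, also overlapped those of mucous-like and endothelial-like cells. Fibroblast-like (highest 16471 CPM), myoepithelial-like (10161 CPM), Clu luminal-like (9280 CPM) and immune-like cells (5260 CPM) reached into it too. So did the unnamed clusters led by Gm24245 (10537 CPM) and Gm12873 (8872 CPM) and cluster 13, led by Mup5 (8237 CPM). Acinar-like cells did not (highest 3001 CPM). These levels are a description without a test. Set against the stromal and immune cells of the same gland, mucous-like cells had the higher Bpifa2 level in 11 of 14 glands, 5 of 5 control and 6 of 9 double-mutant. In double-mutant P40 replicate 4 they had 1465 CPM against 3604 CPM in stromal and immune cells, and in P40 replicate 6 they had 182 CPM against 2662 CPM.

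**Figure D2:**
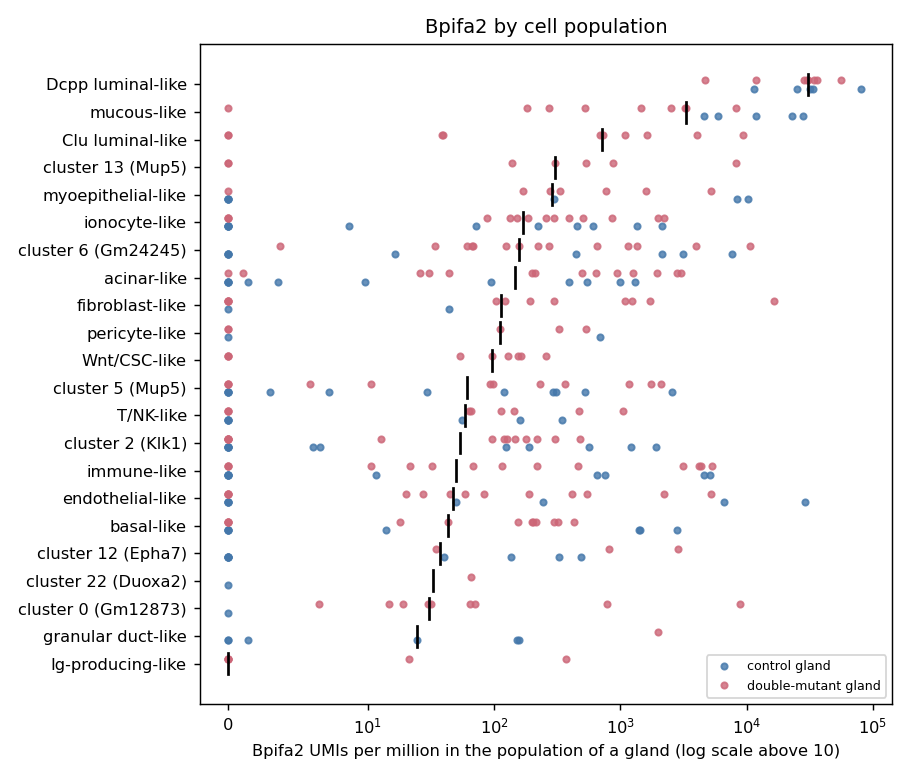
Bpifa2 level (horizontal axis CPM, log scale above 10 and linear below) by cell population, with a bar at the median and 1 point per gland that had at least 10 cells of the population. Dcpp luminal-like cells stand highest, at a mean of 31791 CPM over 13 glands.

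A Bpifa2 UMI was also seen in cells that should lack a salivary protein. With each cell thinned to 500 UMIs, which left out 3 Dcpp luminal-like, 47 mucous-like, 338 endothelial-like and 948 immune-like cells, the share was 86.7% in Dcpp luminal-like and 19.1% in mucous-like cells, against 9.11% in endothelial-like and 6.21% in immune-like cells. Unthinned, these shares were 93.4%, 28.4%, 12.98% and 8.74%, at median depths of 4403, 1340, 722 and 642 UMIs. In the other 18 populations the thinned share was 2.70 to 12.8%, highest in myoepithelial-like (12.8%, unthinned 20.2%) and pericyte-like cells (12.45%, unthinned 17.3%), while acinar-like cells had 3.87% thinned and 19.1% unthinned at a median depth of 4304.5 UMIs. No cut-off between background and expression was tested, so a share at or below that of endothelial-like cells is no sign of absent expression. A share above it is no sign of expression by itself. Pericyte-like cells (12.45%) lay above it and still count among the stromal cells of the ratio that follows. Whether myoepithelial-like (12.8%) or Clu luminal-like cells (10.31%) expressed Bpifa2 was not tested. The ratio of Bpifa2 to the summed Dcpp1 to Dcpp3 UMIs, taken in the 13 glands with at least 10 Dcpp luminal-like cells, was 0.00871 to 0.132 (median 0.0435) in Dcpp luminal-like cells and 0.00817 to 0.134 (median 0.0382) in the stromal and immune cells of the same glands. The Bpifa2 level in those stromal and immune cells was 0.591 to 22.3% (median 7.09%) of that in the Dcpp luminal-like cells.

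**Figure D3:**
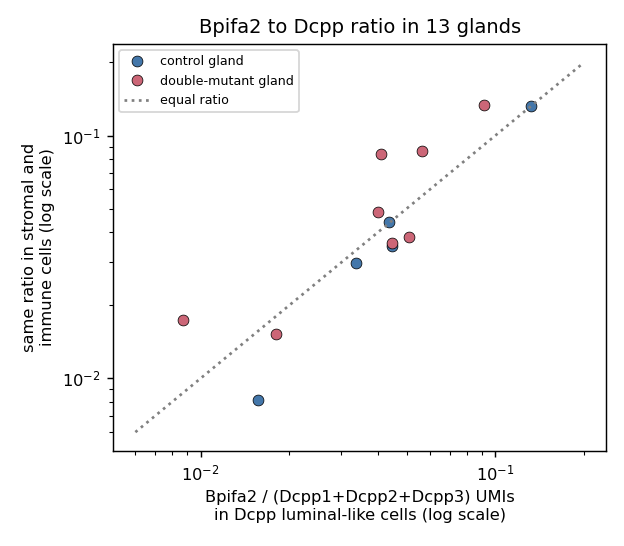
Ratio of Bpifa2 to summed Dcpp1 to Dcpp3 UMIs in stromal and immune cells against the same ratio in Dcpp luminal-like cells, both on log axes, with 1 point per gland (13 glands) and a dotted line at equal ratios. The ratio spans 0.00871 to 0.132 in Dcpp luminal-like cells and 0.00817 to 0.134 in the other cells.

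Dcpp luminal-like cells held most Bpifa2 UMIs, so their number and the level of the gland are not independent, and the values are given as a description. The level did not follow the number in every gland. Double-mutant P90 replicate 6 had 62 such cells and 1347 CPM, and P90 replicate 4 had 19 and 4351 CPM. The 13 glands with 17 to 300 such cells had 1347 to 21405 CPM (median 5242). The other 13, with 0 to 8 such cells, had 0.158 to 399 CPM (median 48.8). The first set comprised 4 control P40, 1 control P90, 5 double-mutant P40 and 3 double-mutant P90 glands. A list of 6 sublingual gland markers (Muc19, Dcpp1, Dcpp2, Dcpp3, Spdef and Muc5b) moved with this split, although they share the 3 Dcpp genes with the population's own markers. Their summed level was 51783 to 222795 CPM in the first set and 37.4 to 20185 CPM in the second, 5 of 6 had UMIs, and Muc5b was at 0. Muc19 alone ranged from 200.7 to 6560 CPM (median 405.1) against 0.0 to 3521 CPM (median 4.60). How much sublingual tissue each dissected gland held was not tested. In whole-gland sums, fewer cells of a type and less RNA per cell cannot be told apart.

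Within the populations, the Bpifa2 difference between genotypes was not called. In Dcpp luminal-like cells the level was 36329 ± 25882 CPM in 5 control glands (SD, range 11495 to 79996) and 28955 ± 15476 CPM in 8 double-mutant glands (SD, range 4637 to 55536). The log2 fold change was -0.55 (SE 0.45, adjusted p = 0.926 by edgeR), in a fit that called 0.763% of its 2359 genes. In mucous-like cells, 5 control glands lay at 4562 to 27648 CPM and 9 double-mutant glands at 0.0 to 8234 CPM. The log2 fold change there was -2.66 (SE 0.87, adjusted p = 0.5262 by edgeR). That fit called 0.0% of 1136 genes, 71 of which had an unadjusted p under 0.05, and with the number of cells as a covariate the Bpifa2 estimate was -3.66 (adjusted p = 0.00624).

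The CITE-seq glands, which the choice of members did not name, held little Bpifa2. The control glands had 400 and 0.453 CPM and the double-mutant glands 89.9 and 31.3 CPM, so the double mutants lay between the controls. In control replicate 1, a single cell held 692 of the 700 Bpifa2 UMIs. The log2 fold change was -2.33 (SE 1.504, adjusted p = 0.317 by edgeR). Without control replicate 1 it turned to 6.15 (adjusted p = 0.0151), and without control replicate 2 it was -3.36 (adjusted p = 0.00183), with the lone control taken to vary like the double mutants. Of the 10058 genes tested in this contrast, 9.24% were called higher and 4.47% lower in double mutants.

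Bpifb9a was counted in double-mutant glands and in no control gland. The 12 control glands had 0 UMIs in 10743 cells, which allows a share of up to 0.0279% of cells with a UMI and a pooled level of up to 0.0754 CPM (3 counts, counting error only). In double-mutant P40 replicates 1 to 7 there were 68, 3, 0, 25, 9, 39 and 3 UMIs, or 30.6, 2.59, 0, 7.26, 13.8, 10.2 and 1.31 CPM. In double-mutant P90 replicates 1 to 7 there were 884, 32, 116, 14, 4, 99 and 6 UMIs, or 248, 36.4, 158, 17.5, 5.78, 77.0 and 1.53 CPM. Thus 13 of 14 double-mutant glands had the transcript, 11 of 12 without both libraries that went against their sex label. In the 5 batches with both genotypes, 9 of 9 double-mutant and 0 of 10 control glands had it.

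Pooled over glands, Bpifb9a was at least 540-fold higher in double mutants, at least 67.4-fold at P40 and at least 393-fold at P90, each against 3 counts over the control group. Here and below, such a bound allows for counting error in the controls only. The double-mutant count is taken as exact, and the spread between glands is left out. Double-mutant P90 replicate 1 held 67.9% of the Bpifb9a UMIs, and without that library the bound was 195-fold over all glands and 132-fold at P90. Without double-mutant P40 replicate 1, which held 68 of 147 UMIs at P40 and is 1 of the libraries against its sex label, the P40 bound was 40.7-fold. The edgeR test gave Bpifb9a an adjusted p of 0.000799 over all glands, 0.0770 at P40 and 0.00806 at P90. The share of all genes called higher in these contrasts was 14.4%, 1.29% and 5.44%. Without P90 replicate 1 its adjusted p over all glands was 9.73e-04. Between the stages of the double mutants, the medians were 7.26 CPM at P40 and 36.4 CPM at P90, the ranges overlapped, and the log2 fold change was 2.74 (SE 0.93, adjusted p = 0.357). The fit with batch as a term used only batches with double mutants of both stages. It left out P90 replicates 1 to 4 and P40 replicate 7, and the log2 fold change was -0.27.

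**Figure D4:**
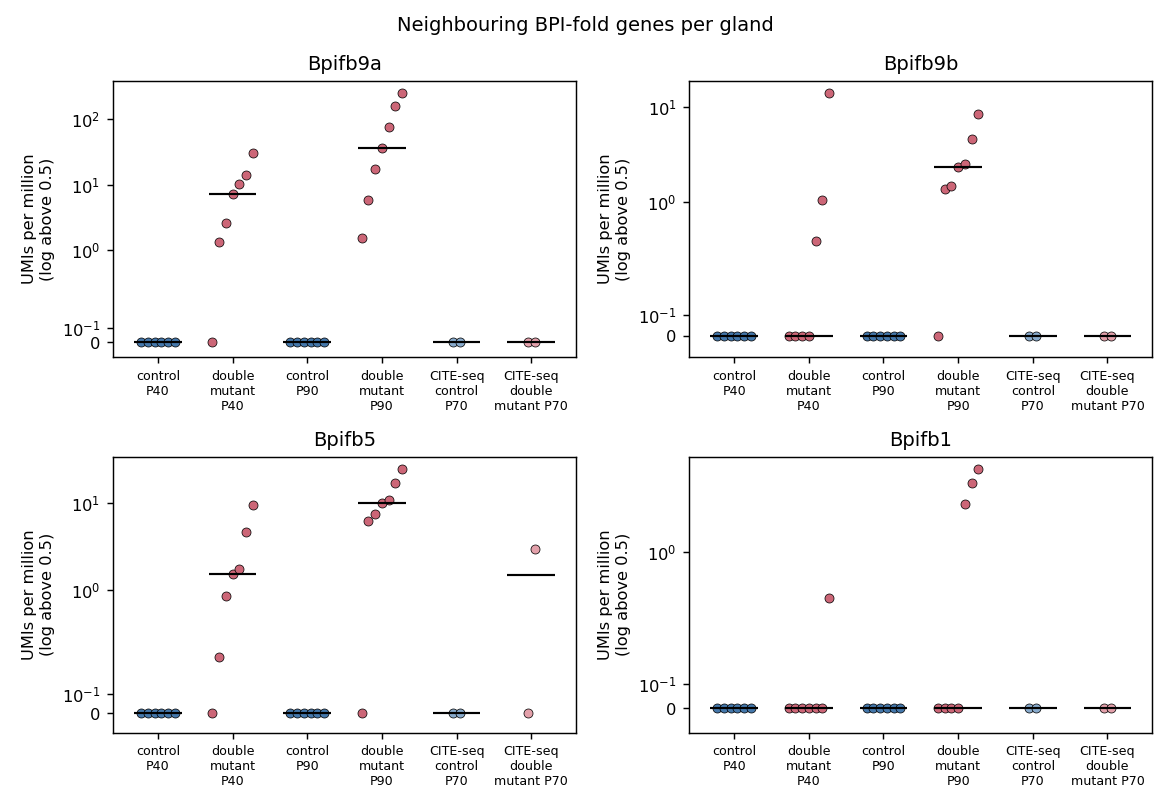
Levels of Bpifb9a, Bpifb9b, Bpifb5 and Bpifb1 in each Drop-seq gland (points; vertical axis CPM, log scale above 0.5 and linear below), with the CITE-seq glands at the right and a bar at each group's median. All 12 control glands sit at 0 for the 4 genes, and 13 of 14 double-mutant glands lie above 0 for Bpifb9a.

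Few cells carried Bpifb9a, and some of them carried much of it. A UMI was found in 58 of the 12603 double-mutant cells (0.460%, exact 95% binomial interval 0.350 to 0.595%, counting error over pooled cells only), 28 of them with 1 UMI. Single glands ranged from 0 of 963 cells in double-mutant P40 replicate 3 to 8 of 606 in P90 replicate 2. The 15 cells with 10 or more UMIs came from 7 glands and held 1210 of the 1302 UMIs (92.9%). Bpifb9a made up 0.293 to 10.5% (median 2.35%) of all UMIs in these 15 cells. The top 5 cells, all from double-mutant P90 replicate 1, held 869 UMIs (66.7%).

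These cells did not fall into one named population. An unnamed cluster of 532 cells led by the transcript Gm12873, 40.6% of whose cells came from double-mutant P90 replicate 1, held 982 Bpifb9a UMIs in 11 cells. Of these UMIs, 869 lay in the top 5 cells, all from that gland. A second unnamed cluster, led by Gm24245, held 119 UMIs in 10 cells, and Wnt/CSC-like cells, named from Wnt target and cancer stem cell markers of the study, held 72 UMIs in 9 cells. Ionocyte-like cells had 42 UMIs in 5 cells and Clu luminal-like cells 25 in 6. Dcpp luminal-like cells, the main site of Bpifa2, had 2 UMIs in 2 of 1296 cells, and 8 of the 58 cells with Bpifb9a also held a Bpifa2 UMI.

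Other transcripts in the 15 Bpifb9a-rich cells were counted as a description, and the cells came from few glands. Krt18, a keratin of luminal epithelium, was found in 13 of the 15 against 42.0% of the other double-mutant cells, and Krt8 in 8 against 26.9%. The basal keratin Krt14 was found in 1 against 5.46%, and the epithelial adhesion gene Epcam in 7 against 36.1%. Nkd1 was found in 6 against 2.34%, Notum in 5 against 1.76%, Axin2 in 1 against 2.07% and Clu in 6 against 14.2%. The secretoglobin genes Scgb1b20 and Scgb2b20, whose family encodes androgen-binding proteins of saliva, were each found in 6 of the 15, against 0.334% and 1.35% of the other double-mutant cells. Scgb1b20 had 134, 87 and 55 UMIs in cells of P90 replicate 1, 30 in a cell of P40 replicate 1 and 1 in each remaining cell with it. Scgb2b20 had 132, 96, 58 and 37 UMIs in those same cells and at most 2 in the remaining ones. The 15 cells had a median of 2079 UMIs against 1151 in double-mutant cells. The other double-mutant cells are of all populations, immune and stromal cells among them. These shares therefore do not compare the 15 cells with epithelial cells alone.

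Bpifb9b followed Bpifb9a at a lower count. It had 55 UMIs in 9 of 14 double-mutant glands and 18 cells, 13 of which also held Bpifb9a, and none in controls, at least 22.8-fold higher when pooled (at least 11.7-fold without P90 replicate 1). It made up 4.05% of the summed Bpifb9a and Bpifb9b UMIs (exact 95% binomial interval 3.07 to 5.24%, counting error over pooled UMIs only). Short reads could not always tell the 2 genes apart. Their GENCODE vM21 transcripts, of 2065 and 2067 bases, matched at 2051 of 2067 aligned columns (99.2%), and 259 of the 437 windows of 64 bases in the last 500 bases of Bpifb9b (59.3%) also occurred in Bpifb9a. The low Bpifb9b count is therefore uncertain, and whether any of it was misassigned was not tested.

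Bpifb1, which encodes a large secreted BPI-fold protein of airway and salivary mucosa, had 23 UMIs in 4 double-mutant glands, 15, 5 and 2 of them in P90 replicates 1, 2 and 3 and 1 in P40 replicate 1. Set against 3 counts over the controls, its pooled level was 9.53-fold higher (3.73-fold without P90 replicate 1, on 8 UMIs). With so few UMIs, counting error in the double mutants could put the true fold lower. Of the 15 Bpifb9a-rich cells, 6 held Bpifb1, with 20 of its 23 UMIs (87.0%). Most of its UMIs thus lay in cells that also carried its neighbour Bpifb9a.

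In the rest of the family, Bpifb5 and Bpifb3 were also absent from control glands. Bpifb5, which lies between Bpifb1 and Bpifb9a, had 132 UMIs in 12 double-mutant glands and 44 cells, at least 54.7-fold over controls, and 12 of the 15 Bpifb9a-rich cells held it. Bpifb3, nearer the proximal end, had 146 UMIs in 12 double-mutant glands and 68 cells, at least 60.5-fold over controls, and none of those cells held Bpifb9a. In whole glands edgeR called Bpifb5 higher (adjusted p = 0.00176), Lbp higher by 1.57 on the log2 scale (SE 0.41, adjusted p = 0.00985) and Pltp higher by 1.16 (SE 0.42, adjusted p = 0.0465). Pltp lost that call in 4 of 10 alternatives. In the CITE-seq glands Pltp had 2.27 and 5.15 CPM in controls and 29.0 and 44.8 CPM in double mutants, a log2 fold change of 2.59 (SE 0.46, adjusted p = 0.0151). Without CITE-seq control replicate 2 it was 2.08 (adjusted p = 0.0507). No Bpifb9a, Bpifb9b or Bpifb1 UMI was counted in the 1772078 UMIs of the CITE-seq double mutants, which allows up to 1.69 CPM against pooled levels of Bpifb9a of 7.31 CPM at P40 and 97.2 CPM at P90 (32.6 CPM without P90 replicate 1) in Drop-seq double mutants. Single Drop-seq double-mutant glands also lay under that limit, at 0, 1.31 and 1.53 CPM. The CITE-seq glands were from other animals at P70, and Bpifb3 (5 and 1 UMIs) and Bpifb5 (0 and 2 UMIs) were seen in the double mutants among them.

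The bulk libraries, 1 per genotype with 34515744 and 34729551 counted reads, had nearly all Bpifb9a, Bpifb9b and Bpifb1 reads in the double mutant, and their difference has no replicate check. Bpifb9a had 1 read in the control and 4812 in the double-mutant library (138.6 CPM), a ratio of depth-scaled reads of 4782 (95% counting interval 858 to 188933). Bpifb9b had 0 and 297 reads, at least 98.4-fold, and made up 5.81% of the summed reads of the pair (exact 95% interval 5.19 to 6.49%). Bpifb1 had 0 and 30 reads, at least 9.94-fold, and Bpifb5 1 and 198 reads (ratio 197, interval 34.9 to 7811). Bpifb3 had 0 and 15 reads, at least 4.97-fold. Lbp had 59 and 103 reads (ratio 1.74, interval 1.25 to 2.43), while Pltp had 150 and 133 (ratio 0.881, with 1 inside its 95% counting interval), with no rise in this double-mutant library, where Drop-seq and CITE-seq glands had one. Bpifa2 had 422 and 758 reads, 12.2 CPM (exact Poisson interval 11.1 to 13.5) in the control and 21.8 CPM (20.3 to 23.4) in the double mutant, a ratio of 1.79 (1.58 to 2.02). On the TPM scale, which also divides by transcript length, Bpifa2 was at 5.34 and 9.68. Bpifa1 had 0 reads in both libraries and Bpifb2 0 and 1. The intervals cover counting error only. The folds given as "at least" set the double-mutant reads, taken as exact, against 3 control reads.

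**Figure D5:**
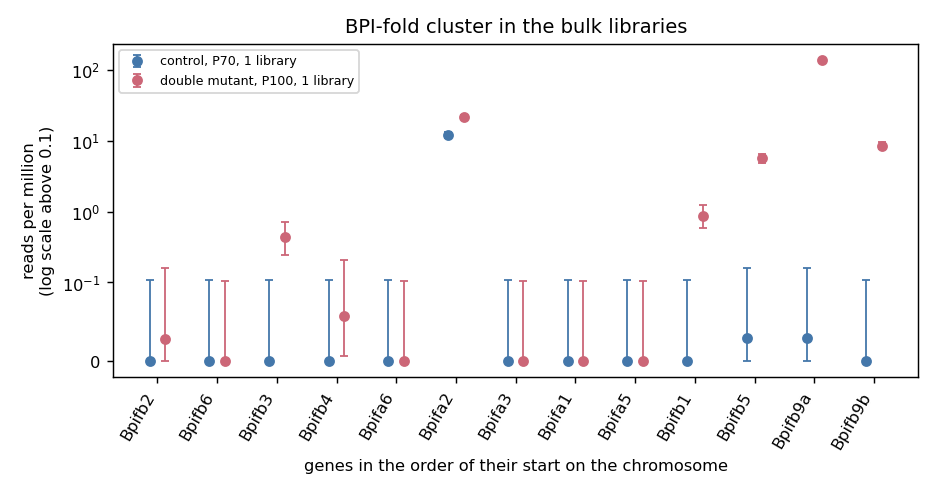
Bulk read level (vertical axis CPM, log scale above 0.1 and linear below) of the BPI-fold genes in chromosome order, for the control library (P70) and the double-mutant library (P100), with 95% Poisson intervals. Bpifb9a stands at 138.6 CPM in the double-mutant library, where the control had 1 read.

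Genes whose level moved most like a member were ranked by Pearson's correlation of log2(CPM + 1), a description over points that share libraries and depth. Over the 26 glands Bpifa2 was most like the peptidoglycan recognition gene Pglyrp1 (r = 0.919), BC048546 (0.893), the major urinary protein gene Mup4 (0.879), Dcpp2 (0.876) and Dcpp3 (0.872). Over 22 cell populations it was most like Mup6 (0.930), Mup4 (0.828), St3gal1 (0.823), Dcpp2 (0.786) and Dcpp3 (0.784). Bpifb9a was most like Bpifb5 (0.905), Gm21718 (0.832), the clusterin gene Clu (0.822), Gpcpd1 (0.816) and Abhd2 (0.794) over glands. Over populations, the genes most like it included Bpifb5 (0.808), Rny3 (0.781), Scgb2b7 (0.761) and Scgb2b20 (0.734). The controls, all at 0, enter each Bpifb9a value over glands.

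Gene lists chosen with earlier results known placed the family beside its surroundings in whole glands, where the median log2 fold change of all genes was 0.02. Of 9 genes of the lipopolysaccharide receptor pathway, on which BPI-fold proteins and LBP act or border, 6 were tested. The receptor gene Cd14 was higher in double mutants by 1.03 (adjusted p = 0.0339), the adaptor gene Tirap fell by 0.63 (adjusted p = 0.0412), and the list's median was 0.38. With 14.4% of all genes called higher and 7.56% lower, 1 of 6 each way reads near the background. Of 20 salivary secretory genes 18 were tested. The lysozyme gene Lyz1 rose by 3.88 on the log2 scale (adjusted p = 4.7e-05) and the lactoferrin gene Ltf by 6.47 (adjusted p = 0.000321), while the water channel gene Aqp5 fell by 1.16 (adjusted p = 0.00747) and the growth factor gene Egf by 2.02 (adjusted p = 0.0130). That list's median was -0.57, and its 2 of 18 called each way were also near the background. In the CITE-seq glands 1 of 8 receptor pathway genes tested was higher and none lower, and of 16 secretory genes tested 2 were higher and 9 lower, beside 9.24% higher and 4.47% lower over all genes tested.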

How the data were processed

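Drop-seq and CITE-seq RNA tables were deposited by the authors as UMI counts per gene and cell (Drop-seq tools, GENCODE vM7 with Cre and EYFP sequences added, barcodes chosen at the knee). Bulk counts per gene were deposited by the authors from a stranded kit, aligned with STAR to mm10 and counted with featureCounts, for which no strand option is given in the sources used here. Antibody tag tables were not used here.

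The members and lists were chosen with earlier results of these data known. Cells with at least 100 genes and under 15% mitochondrial UMIs were kept (CITE-seq RNA under 2500 genes as well). No doublet caller was run, and a limit of 2500 genes was an alternative. Cells were clustered with scanpy 1.11.5 (2000 variable genes, 30 components, 20 neighbours, resolution 1) without the BPI-fold genes of the tables, giving 25 clusters. Clusters were named from fixed markers, 7 stayed unnamed, and 4 were named acinar-like in a second pass chosen after seeing the data. Tests ran on sums of UMIs over a gland, or over a population of at least 10 cells within it, with edgeR 4.0.16 in R 4.3.3 (TMM, filterByExpr, quasi-likelihood, sex and stage as terms, threshold 0.05), checked on simulated counts. DESeq2 1.42.0 was an alternative. Named genes were all members, family genes with at least 10 UMIs, called genes of both lists, and the 5 genes most like each tested member, of which 1 is not reported here. Leaving out double-mutant P90 replicate 1 or the Dcpp luminal-like cells was chosen after seeing the data. Bulk counts have no replicate. Their CPM is relative to all counted reads, and each gene's length entered the TPM.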

Additional observations from a re-analysis of the deposited data

Results flagged for a closer look

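In 7 of 16 groups tested, the highest gland stood apart from the others by Dixon's criterion at the 95% level. Chance meets it in about 1 in 20 groups where values are normally distributed. The criterion was applied to CPM without a log scale, which is skewed, so that rate does not hold here. The groups that are mostly 0 meet it with a single UMI. Bpifa2 in control P90 replicate 3 was 5242 CPM, against 243.2 CPM in the next of 6 glands. Bpifa2 in double-mutant P90 replicate 4 was 4351 CPM, against 1363 CPM in the next of 7. Bpifb9b in double-mutant P40 replicate 5 was 13.84 CPM, against 1.04 CPM in the next. Bpifb1 was 0.4504 CPM in double-mutant P40 replicate 1 and Bpifb2 was 0.1536 CPM in double-mutant P40 replicate 3, each 1 UMI with the other 6 glands of the group at 0. Within Dcpp luminal-like cells, Bpifa2 in double-mutant P40 replicate 3 was 55536 CPM, against 34343 CPM in the next of 5 glands. Within mucous-like cells, Bpifa2 in double-mutant P40 replicate 7 was 8234 CPM, against 2507 CPM in the next of 5.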

How the results depend on the processing

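The whole-gland call of Bpifb9a kept its direction and its side of the threshold in 10 of 10 alternatives (adjusted p at most 0.00230). At P40 its log2 fold change of 7.59 passed the threshold with DESeq2 (6.97), without the filter on low counts (7.60) and with the replicate block (7.49). Without that filter the stage estimate in double mutants (2.69) passed too. Batch as a term turned that estimate to -0.27, in a fit without P90 replicates 1 to 4 and P40 replicate 7. Bpifa2 turned to 0.30 in whole glands without Dcpp luminal-like cells, to 1.10 at P90 with the replicate block, and to -1.82 between the sexes with that block. Without the low-count filter it passed the threshold for stage in controls (-2.95), stage in double mutants (-2.66), sex (1.76) and CITE-seq genotype (-2.35), where leaving out 1 library gave -3.43 to 6.15. In mucous-like cells it passed with the number of cells as a covariate (-3.66). Among other family genes, Pltp turned to -0.21 between stages of double mutants with batch as a term, in the same smaller set of glands. Between the sexes it turned to 0.99 with the block. The cause of these changes was not tested.

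Genes called in whole glands were 2308, and 3998 with the replicate block. With DESeq2, no filter on low counts and the block in that order, calls were 731, 1313 and 923 at P40 (155 in the reported fit), 1504, 1809 and 1854 at P90 (922), and 205, 616 and 10 for sex (91). With DESeq2 and no filter they were 911 and 1523 for stage in controls (575), 28 and 627 for stage in double mutants (0), 8 and 189 for the interaction (1), and 644 and 2356 in CITE-seq (1379). Without both libraries that went against their sex label they were 368 at P90 and 0 for the interaction, and without double-mutant P90 replicate 1 the interaction had 2. In CITE-seq all barcodes gave 495, and leaving out 1 library gave 380 to 1050. In mucous-like cells at least 20 cells per gland gave 2 and the cell number covariate 6 (0).

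Replicate numbers did not pair the glands: over 37 same-numbered pairs the median correlation of deviations from the group means was 0.0517 (-0.328 to 0.495, 12 over 0.1), against -0.0199 over 216 other pairs. With the block, the whole-gland estimate of Bpifa2 was -0.01.

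Depth was lowest in double-mutant P90 cells, and Bpifb9a rests on 58 cells. With 2 CITE-seq libraries per group, leaving out control replicate 1 turned the sign of Bpifa2, and the bulk libraries have no replicate.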

Other observations

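Red blood cell transcripts (5 markers) made up 11636 and 20243 CPM of the CITE-seq double-mutant libraries and 57.6 to 174.4 CPM of the CITE-seq controls. Parotid markers (6 genes) summed to at most 23.5 CPM in any Drop-seq gland, and airway or nasal markers (6 genes) to at most 8.67 CPM, although BPI-fold genes are best known from those tissues. In the bulk libraries Scgb1b20 had 0 control and 3704 double-mutant reads and Scgb2b20 0 and 12608, and the parotid amylase gene Amy1 had 177 and 54.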
